A study of Mus musculus with 2 samples.

Results

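Autophagy encloses cytoplasm in a double membrane, the autophagosome, and delivers it to the lysosome for breakdown. A kinase complex starts the process, a lipid kinase marks the membrane, lipid is brought in, and small ubiquitin-like proteins of the ATG8 family are attached to the growing sheet, where they bind cargo receptors. Macrophages use the same conjugation enzymes to process engulfed material. The 37 genes described here encode this machinery. They were chosen by gene symbol from the 16428 genes with a read in at least 1 of 2 RNA-seq libraries. Earlier results of these data were known when they were chosen. In the tables, 36 of the 37 were found under their own symbol. Atg101 was listed under an older symbol, 9430023L20Rik, and was matched by its Entrez identifier, so that it has reads and not the 0 that its current symbol alone would give.

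The libraries were made from macrophages sorted from the bone marrow and from the spleen of mice with acute myeloid leukaemia, 1 library per tissue, so no difference below has a replicate check. Leukaemia cells with the MLL-AF9 fusion oncogene and a green fluorescent label were passed from leukaemic donors to C57BL/6J mice aged 6 to 8 weeks, at 500000 cells per mouse. The hosts were not irradiated and so kept their own blood-forming cells, and they lived for 25 to 30 days. Collection was at day 15. Both groups carried the leukaemia, and healthy mice were not analysed here. No source used here gives the gates of the sort or how many mice stand behind a library. The series set out to compare leukaemia-associated macrophages, and the comparison made here is between the 2 leukaemic tissues.

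After scaling, the library sizes were 9405947 uniquely placed reads for bone marrow and 8457857 for spleen. Both libraries held genes of other blood cells. The 18 macrophage markers checked all had reads in both, and 10 reached 2-fold towards spleen and 0 towards marrow. They had summed levels of 881 CPM in marrow and 1921 in spleen (CPM is a gene's reads scaled to a common library size). Of 17 measured neutrophil and granulocyte precursor markers, 16 were higher in bone marrow, with sums of 50665 and 2389 CPM, and Ly6g had 0 reads in both tables. Eosinophil, basophil and mast cell markers summed to 2631 CPM in marrow and 76.6 in spleen, progenitor and MLL-AF9-associated markers to 1235 and 364 CPM, and megakaryocyte markers to 343 and 28.0 CPM. In each of these lists 1 marker went the other way. These were Il5ra past 2-fold, at 5.42 and 23.6 CPM, and, within 2-fold, Flt3 at 71.1 and 118 CPM and Ppbp at 1.81 and 2.25 CPM. All 10 B cell markers and all 11 T cell markers were higher in spleen, with sums of 471 and 207 CPM in bone marrow against 4951 and 1739 CPM in spleen. Dendritic cell markers summed to 146 and 819 CPM. For plasma cell markers the sums were 557 and 2271 CPM, and for NK cell markers 161 and 285 CPM. Erythroid markers summed to 315 and 203 CPM, of which Tfrc alone gave 248 and 130 CPM. Of these 9 markers, 0 reached 2-fold towards marrow and 1 towards spleen. Stromal and endothelial markers summed to 155 and 186 CPM, of which Pecam1 alone gave 110 and 173 CPM. Of these 6 markers, 3 reached 2-fold towards marrow and 1 towards spleen. The part of these cells in any difference below was not tested, and a change in the share of a cell type cannot be told apart from a change in RNA per cell.

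As a whole, RNA of the autophagy genes was present at nearly the same level in both libraries. All 37 genes had reads in both tables, between 37 reads for Wipi1 in spleen and 3113 reads for Tax1bp1 in bone marrow. Together they took 0.251% of the bone marrow reads and 0.267% of the spleen reads. After scaling that was 2566 and 2606 CPM, a ratio of 1.02 towards spleen (95% counting interval 0.997 to 1.03). That interval holds for this scaling, and none was computed for the unscaled shares. The median difference between the libraries over the 37 genes was -0.06 on the log2(CPM + 1) scale, bone marrow minus spleen, against 0.03 over all 12970 measured genes (those reaching 1 CPM and 10 reads in either library). The median size of the difference, without its sign, was 0.40 for the autophagy genes and 0.58 for all measured genes.

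Few of the genes differed by 2-fold. Wipi1, Gabarapl1 and Optn, 3 of the 37 (8.11%), passed 2-fold towards bone marrow, as did 14.1% of all measured genes. Atg16l2 alone, 1 of the 37 (2.70%), passed it towards spleen, as did 14.6% of all measured genes. In either direction that is 10.8% of the autophagy genes against 28.8% of all measured genes, and against 26.3% of the 9895 measured genes whose mean CPM lay within the range of the 37. At a limit of 1.5-fold, 6 of the 37 were higher on the marrow side, against 24.7% of all measured genes. On the spleen side 4 of the 37 passed it, against 25.1%. Together that is 27.0% of the autophagy genes, to be read against the sum of those 2 background shares and not against either alone. The nearest gene inside the 2-fold limit was Uvrag at -0.92 on the log2 scale, and the nearest outside was Atg16l2 at -1.13. A 95% counting interval that excluded equal levels was found for 26 of the 37, 12 of them with the higher level in marrow and 14 in spleen. Those intervals are exact conditional binomial (Clopper-Pearson) ones and cover counting error only. The share of all measured genes with such an interval was not computed, so the 26 cannot be read against a background.

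**Figure D1:**
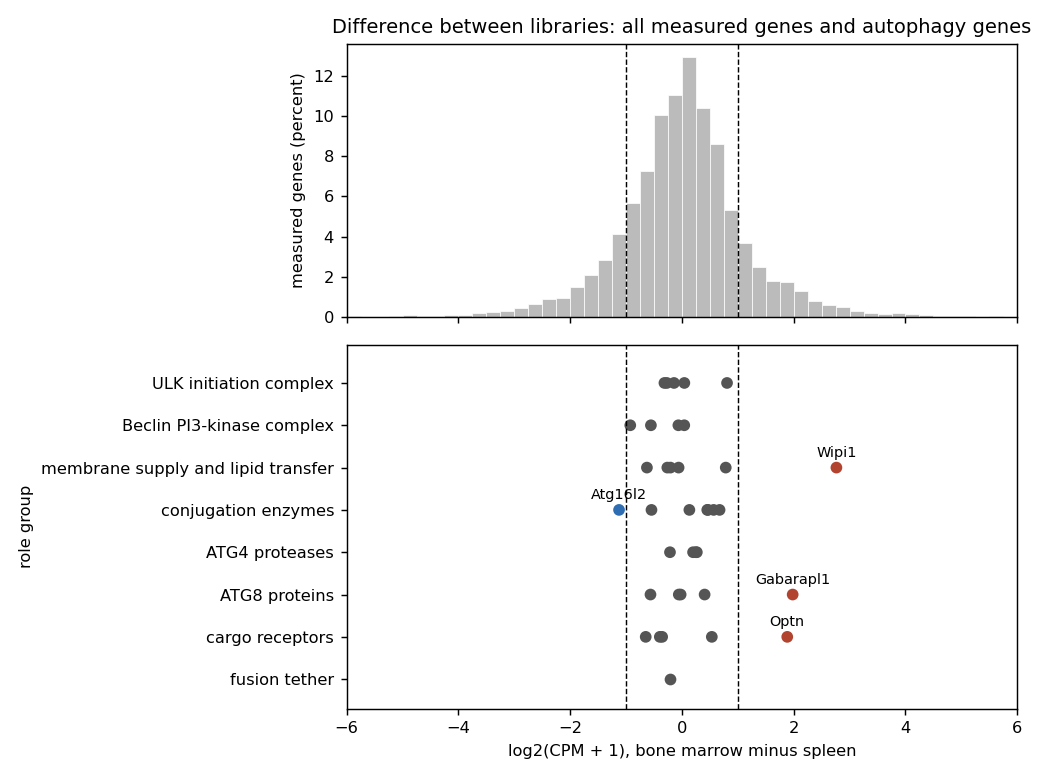
The upper panel gives the percent of 12970 measured genes in each bin of the log2(CPM + 1) difference, bone marrow minus spleen, with values beyond 6 placed in the end bins; the lower panel gives the 37 autophagy genes as points by role group, coloured where past the dashed 2-fold limits. Wipi1, Gabarapl1 and Optn lie to the right of the limits and Atg16l2 to the left, and the other 33 genes lie between -0.92 and 0.81.

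Because the genes past 2-fold sit in different steps of the pathway, the stretch of 250 bases before the annotated start of each is shown, to let their promoters be compared. They are RefSeq sequences of assembly GRCm38.p6, written 5′ to 3′ on the gene's strand. Capitals mark the GC box GGGCGG, the core sequence bound by Sp1-type factors, or its reverse complement CCGCCC.
Wipi1 (chr11:109611390-109611639, minus strand): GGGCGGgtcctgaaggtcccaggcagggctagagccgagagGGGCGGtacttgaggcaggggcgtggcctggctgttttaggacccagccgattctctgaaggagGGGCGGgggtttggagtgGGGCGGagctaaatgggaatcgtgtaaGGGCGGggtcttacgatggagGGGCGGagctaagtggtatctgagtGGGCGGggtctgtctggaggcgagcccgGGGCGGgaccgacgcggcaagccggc
Gabarapl1 (chr6:129532942-129533191, plus strand): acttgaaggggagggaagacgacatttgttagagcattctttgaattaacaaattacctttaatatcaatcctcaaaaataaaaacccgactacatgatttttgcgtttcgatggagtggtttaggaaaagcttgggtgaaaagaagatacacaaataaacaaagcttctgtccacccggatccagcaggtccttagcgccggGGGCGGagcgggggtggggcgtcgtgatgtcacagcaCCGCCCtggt
Optn (chr2:5064118-5064367, minus strand): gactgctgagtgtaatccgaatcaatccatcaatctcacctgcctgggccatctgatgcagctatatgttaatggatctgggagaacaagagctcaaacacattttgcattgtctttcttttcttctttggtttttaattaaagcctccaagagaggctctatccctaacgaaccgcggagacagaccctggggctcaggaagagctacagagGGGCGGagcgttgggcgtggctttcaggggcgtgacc
Atg16l2 (chr7:101302089-101302338, minus strand): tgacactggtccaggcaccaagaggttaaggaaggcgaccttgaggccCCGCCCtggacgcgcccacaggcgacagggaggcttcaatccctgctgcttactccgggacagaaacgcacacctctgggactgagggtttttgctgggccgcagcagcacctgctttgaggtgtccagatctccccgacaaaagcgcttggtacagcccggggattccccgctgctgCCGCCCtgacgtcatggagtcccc
The promoter shown for Wipi1 holds 8 GC boxes, a number reached by 0.155% of the 32851 promoters of the same length. There were 2 GC boxes before Gabarapl1, 1 before Optn and 2 before Atg16l2, and at least 1 was found in 32.7% of all promoters. Promoters were found for 31 of the 37 genes, 37 sequences in all because some genes have several starts, and 54.1% of these held a GC box. In the sequences printed above, the G and C content ran from 46.8% for Gabarapl1 to 67.2% for Wipi1. The medians were 59.2% over the autophagy promoters and 52.4% over all promoters. The 3 genes higher in bone marrow thus shared the GC box with Atg16l2, which was higher in spleen.

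A further set is shown because its motif is a known link between promoters and this pathway. The CLEAR-type E-box GTCACGTG, of the kind that the lysosome regulators Tfeb, Tfe3 and Mitf bind, was searched on both strands and contains the shorter E-box core CACGTG. It stood before 2 of the 31 genes, Atg3 and Atg7, and in 1.85% of all promoters. Capitals mark the motif in the windows around it.
Atg3 (chr16:45158721-45158775, plus strand): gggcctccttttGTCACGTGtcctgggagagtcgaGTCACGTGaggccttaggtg
Atg7 (chr6:114670950-114670981, plus strand): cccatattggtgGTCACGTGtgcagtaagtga
Atg3 had 2 copies and Atg7 had 1. None of the 4 genes past 2-fold had these letters in the 250 bases searched, which says nothing of sites elsewhere. The levels of Atg3 and Atg7 are given with the conjugation enzymes below, and those of Tfeb, Tfe3 and Mitf with the upstream regulators.

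The ULK complex, the kinase that starts autophagosome formation, differed little apart from 1 subunit gene. Atg101, which stabilises Atg13 in the complex, was at 50.2 CPM in marrow and 28.3 in spleen, 1.78-fold higher in bone marrow (1.52 to 2.08). It also had the highest level per length of the 5 in both libraries, at 39.9 and 23.5 RPKM, the authors' deposited measure of reads scaled to gene length and library. The kinases Ulk1 and Ulk2 stood at 59.2 and 55.2 CPM in bone marrow and at 57.5 and 68.8 CPM in spleen. Ulk1 was nearly equal, and its sign turned when scaled by library totals (log2 difference -0.02), while Ulk2 was 1.25-fold higher in spleen (1.11 to 1.41). The adaptor Atg13 was at 55.1 and 60.9 CPM and Rb1cc1, the scaffold also called FIP200, at 66.2 and 80.0 CPM.

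In the lipid kinase complex, the shared subunit was level and an alternative subunit was not. Becn1, the core subunit Beclin 1, was at 127 CPM in marrow and 123 in spleen, a difference within counting error whose sign depended on the scaling (-0.02 with library totals alone). Atg14, which directs the complex to the forming autophagosome, was at 20.2 and 21.2 CPM. Uvrag, the subunit that takes Atg14's place in the endosomal form of the complex, was at 83.4 CPM in marrow and 159 in spleen, 1.91-fold higher in spleen (1.75 to 2.09). Ambra1, a positive regulator of Beclin 1, was 1.48-fold higher in spleen (1.33 to 1.64). Becn1 had the highest level per length of this group in both libraries, at 61.1 and 62.2 RPKM.

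The genes that bring membrane and lipid held the largest difference of all 37. Wipi1 encodes a protein that binds the phosphatidylinositol 3-phosphate made by the Beclin complex. It had 334 reads in the marrow library and 37 in that of spleen, or 35.5 and 4.37 CPM, and was 8.12-fold higher in bone marrow (5.77 to 11.7). Its relative Wipi2, which recruits Atg16l1 to the membrane, was at 68.5 CPM in marrow and 79.1 in spleen. Per length, Wipi1 was 1.12 times the level of Wipi2 in bone marrow and 0.119 times in spleen.

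Atg9a, the lipid scramblase of the vesicles that seed the membrane, was 1.74-fold higher in bone marrow (1.54 to 1.96), at 83.6 and 48.1 CPM. It had the highest level per length of this group in bone marrow, at 21.7 RPKM, and Wipi2 had it in spleen, at 20.7 RPKM. The lipid-transfer protein gene Atg2a went the other way, at 72.1 CPM in marrow and 112 in spleen, 1.55-fold higher in spleen (1.40 to 1.72). Its paralogue Atg2b was 1.20-fold higher in spleen, and Vmp1, an endoplasmic reticulum scramblase, was nearly level at 51.6 and 53.8 CPM.

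**Figure D2:**
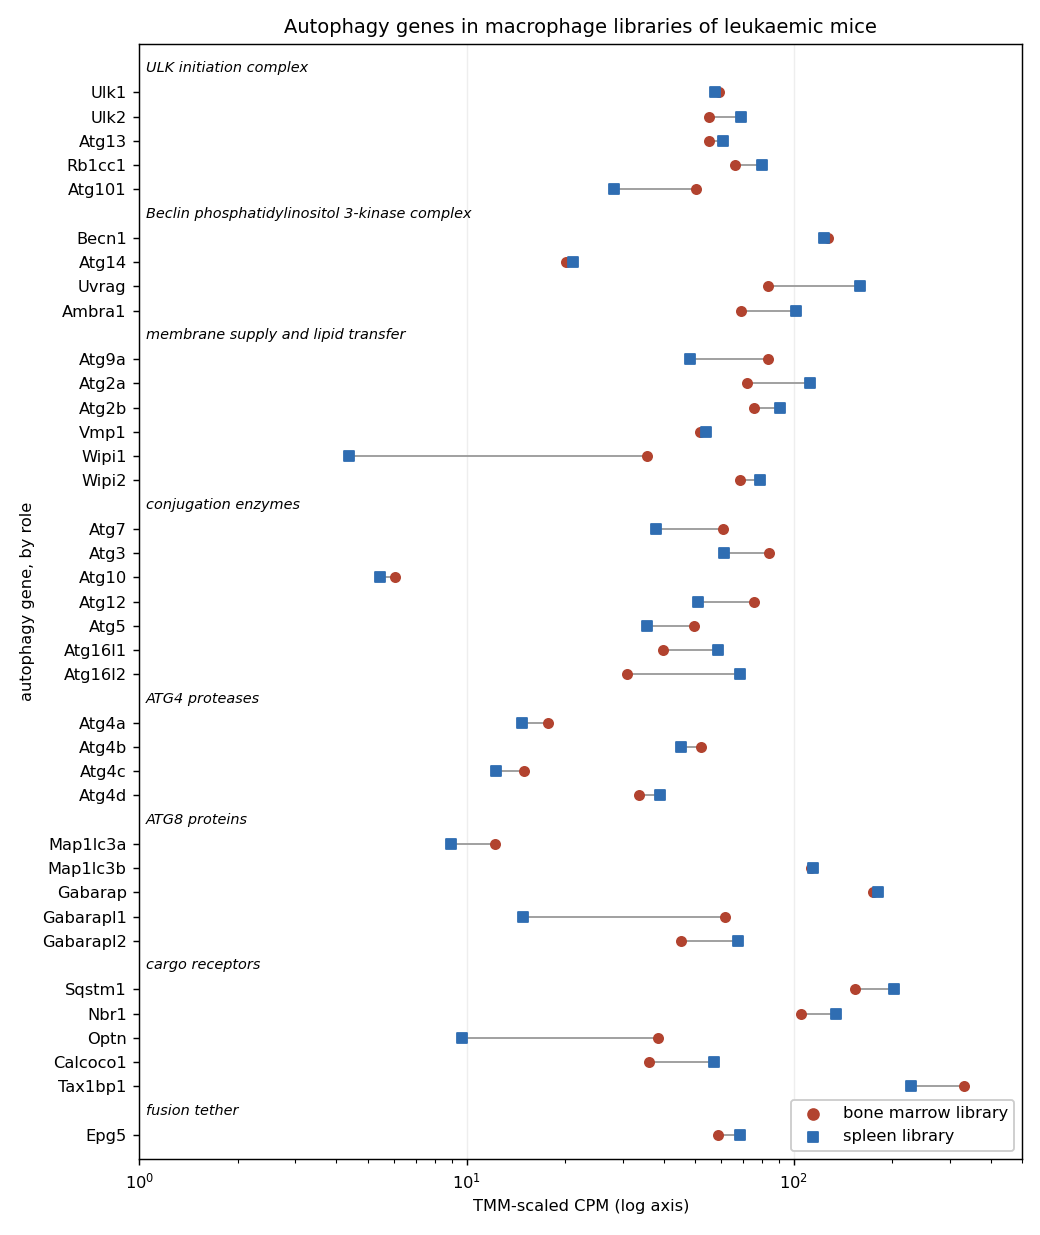
TMM-scaled CPM of the 37 genes on a log axis, by role group, with circles for the bone marrow library and squares for the spleen library, 1 value each, joined by a line. The long lines belong to Wipi1 (35.5 and 4.37 CPM), Gabarapl1 (61.8 and 14.9 CPM) and Optn (38.5 and 9.70 CPM), with shorter ones for Atg16l2 and Uvrag in the other direction.

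The conjugation enzymes went in both directions. Atg7, the E1-like enzyme that activates Atg12 and the ATG8 proteins, was at 60.9 CPM in marrow and 37.8 in spleen, 1.61-fold higher in bone marrow (1.40 to 1.85). Atg3, the E2-like enzyme that passes ATG8 proteins to lipid, was at 83.9 and 61.0 CPM, 1.37-fold higher in bone marrow (1.23 to 1.54). Atg12 and its partner Atg5, which form the E3-like conjugate, were also higher in bone marrow, Atg12 by 1.49-fold (1.32 to 1.68) and Atg5 by 1.39-fold (1.20 to 1.61). Atg10, the E2-like enzyme for Atg12, had few reads, 57 and 46, or 6.06 and 5.44 CPM, and its interval included equal levels.

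The third partner of that conjugate went towards spleen. Atg16l1, which places Atg5 and Atg12 on the membrane, was at 39.9 CPM in marrow and 58.6 in spleen, 1.47-fold higher in spleen (1.28 to 1.69). Its paralogue Atg16l2 was at 30.9 and 68.7 CPM, 2.22-fold higher in spleen (1.93 to 2.56). Atg16l2 had the highest level per length of the 7 conjugation genes in spleen, at 32.2 RPKM, and Atg3 had it in bone marrow, at 40.7 RPKM. The gene span of Atg12 overlaps that of Ap3s1, an adaptor subunit gene with 2902 reads in bone marrow and 412 in spleen. Whether the counting used strand is not given, so reads of Ap3s1 in Atg12 cannot be told apart from its own.

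The ATG4 proteases, which trim ATG8 proteins and later release them from lipid, spanned the narrowest range of the role groups with several genes. All 4 lay within 1.5-fold, from -0.21 for Atg4d to 0.27 for Atg4c on the log2 scale. Atg4b, which acts most broadly on the ATG8 proteins, was at 52.0 CPM in marrow and 45.2 in spleen. Per length it was the highest of the 4 in bone marrow at 17.1 RPKM, and Atg4d was in spleen at 15.8 RPKM, next to Atg4b at 15.6. Spans of Atg4a and Atg4d overlap those of Psmd10 and Kri1, each with over 100 reads in both tables, under the same limit on strand.

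The ATG8 family kept its sum but not its make-up. The 5 genes together reached 306 RPKM in bone marrow and 320 RPKM in spleen. Gabarap was the leading member in both, with 49.6% of the family's RPKM in bone marrow and 51.6% in spleen, and Map1lc3b, which encodes the LC3B used as the standard autophagosome marker, held 21.0% and 21.4%. Between the libraries both were within counting error of equal, Gabarap at 174 and 181 CPM and Map1lc3b at 113 and 114 CPM. The difference lay in the other members, of which Gabarapl2 stood at 69.2 RPKM in spleen, next to Map1lc3b at 68.4.

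Gabarapl1 had 581 reads in the marrow library and 126 in that of spleen, or 61.8 and 14.9 CPM, and was 4.15-fold higher in bone marrow (3.41 to 5.07). Its span overlaps the gene 1700101I11Rik, with 6 reads in marrow and 0 in spleen. Gabarapl1 made up 11.1% of the family's RPKM in bone marrow and 2.69% in spleen. Gabarapl2, also called GATE-16, went the opposite way at 45.3 CPM in marrow and 67.4 in spleen, 1.49-fold higher in spleen (1.31 to 1.69), with 14.5% and 21.6% of the family. Map1lc3a, the least abundant per length in bone marrow, was at 12.2 and 8.99 CPM.

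**Figure D3:**
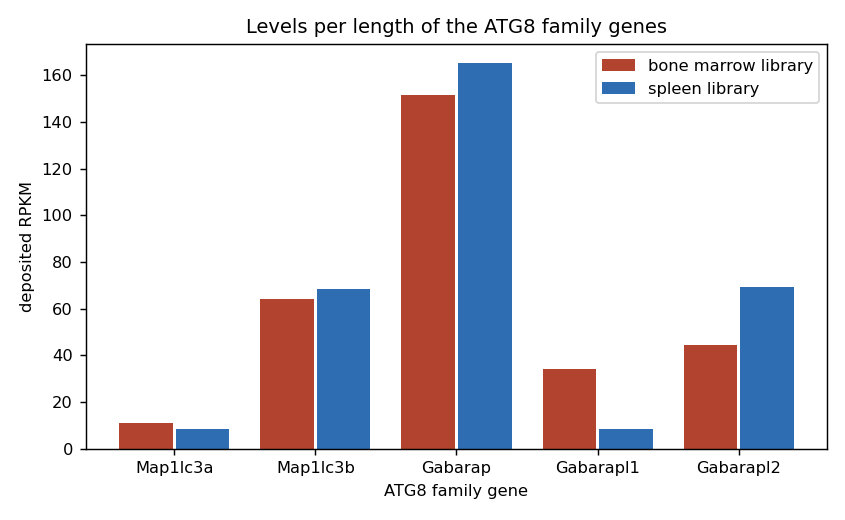
Deposited RPKM of the 5 ATG8 family genes in the bone marrow and spleen libraries, 1 bar per library from 0 and without error bars since there was 1 library each. Gabarap leads at 152 and 165 RPKM, Gabarapl1 stands at 34.0 in bone marrow and 8.60 in spleen, and Gabarapl2 stands at 44.4 and 69.2.

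Among the cargo receptors, which tie ubiquitin-marked or organelle cargo to ATG8 proteins, Optn stood apart. Optn, the receptor optineurin, known for clearance of damaged mitochondria and bacteria, had 362 reads in the marrow library and 82 in that of spleen, or 38.5 and 9.70 CPM. It was 3.97-fold higher in bone marrow (3.12 to 5.11). Tax1bp1, another ubiquitin-binding receptor, was at 331 CPM in marrow and 228 in spleen, 1.45-fold higher in bone marrow (1.37 to 1.54).

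The other 3 receptors were higher in spleen by less than 2-fold. Sqstm1, which encodes p62, was at 154 CPM in marrow and 203 in spleen, 1.32-fold higher in spleen (1.23 to 1.41). Nbr1, which acts with p62, was 1.28-fold higher in spleen (1.18 to 1.40), and Calcoco1, a receptor for endoplasmic reticulum and Golgi, 1.58-fold (1.38 to 1.82). Per length, Tax1bp1 led in bone marrow at 97.8 RPKM ahead of Sqstm1 at 75.2, and the order was turned in spleen, with Sqstm1 at 104 RPKM and Tax1bp1 at 70.6. Epg5, the tether that joins autophagosomes to lysosomes, was at 58.7 and 68.5 CPM, 1.17-fold higher in spleen (1.04 to 1.31).

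Ratios between related genes do not depend on how the libraries are scaled against each other, and 14 pairs were compared in this way. The ratio of Wipi1 to Wipi2 was 9.37 times as large in bone marrow as in spleen (exact conditional 95% interval 6.53 to 13.8). That of Gabarapl1 to Gabarapl2 was 6.16 times as large (4.88 to 7.83), and that of Gabarapl1 to Gabarap 4.31 times (3.50 to 5.34). For Optn the value depended on the partner, at 6.27 (4.73 to 8.39) against Calcoco1 and 2.74 (2.13 to 3.55) against Tax1bp1. The ratio of Atg16l2 to Atg16l1 was 1.51 times as large in spleen (1.24 to 1.84). Uvrag to Atg14, the alternative subunits of the lipid kinase, was 1.82 times as large in spleen (1.45 to 2.29). For Gabarap to Map1lc3b, the leading genes of the ATG8 subfamilies, the value was 0.977 (0.873 to 1.09), and for Atg4a to Atg4b it was 1.04 (0.792 to 1.38), both with equal ratios inside the interval.

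**Figure D4:**
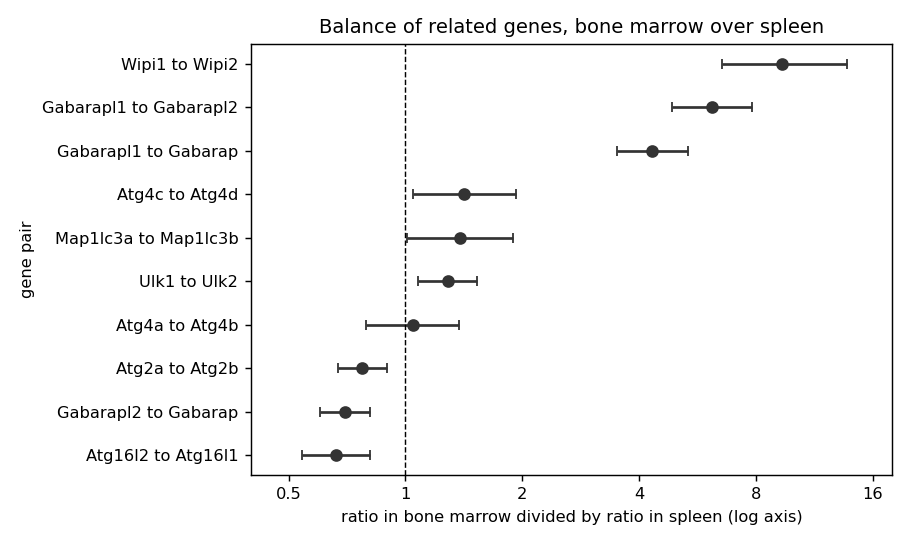
Read ratio of 10 gene pairs in bone marrow divided by the same ratio in spleen, on a log axis, with exact conditional 95% intervals that cover counting error only; the dashed line marks equal ratios. Of the 10 pairs plotted, Wipi1 to Wipi2 lies farthest to the right at 9.37, and Atg16l2 to Atg16l1 farthest to the left at 0.663.

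The 3 genes higher in bone marrow were higher in the library with more granulocyte, progenitor and megakaryocyte RNA, at summed levels of 50665 against 2389, 1235 against 364 and 343 against 28.0 CPM. Atg16l2 and Uvrag were higher in the library with more B and T cell RNA, at 4951 against 471 and 1739 against 207 CPM, and with more macrophage marker RNA, at 1921 against 881 CPM. Plasma cell and dendritic cell markers were also higher there, at 2271 against 557 and 819 against 146 CPM. The part of these cells was not tested for any of the 5 genes.

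Other genes of the pathway were read from lists of 79 genes outside these 37. Of the 79, in 5 lists, 76 were measured, and 12 passed 2-fold towards spleen and 6 towards marrow, which is 15.8% and 7.89% against 14.6% and 14.1% of all measured genes. Their median difference was 0.09 on the log2 scale, with 41 genes above 0 and 35 below. Among 13 further core genes, 4 (30.8%) passed 2-fold towards spleen, against 14.6% of all measured genes, and the median was -0.30. Rubcn encodes Rubicon, which binds the Uvrag form of the lipid kinase and restrains autophagosome maturation, and it was at 49.4 CPM in marrow and 202 in spleen. Rubcnl, a relative of Rubcn, was at 13.8 and 90.3 CPM, and Tecpr1, which binds Atg5 and acts at the lysosome, at 32.2 and 128 CPM. Trp53inp2, an ATG8-binding protein gene, was the 1 such gene past 2-fold towards marrow, at 46.9 and 16.3 CPM. The catalytic subunit Pik3c3 was level, at 52.6 and 52.0 CPM. None of the 12 measured genes of autophagosome-lysosome fusion passed 2-fold (0 of 12), with a median of -0.23. Over all measured genes, 28.8% passed it in either direction.

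The upstream regulators included Ddit4, whose difference of -2.65 on the log2(CPM + 1) scale was close to the -2.62 of Rubcnl. Of 23 genes, 7 (30.4%) passed 2-fold towards spleen and 1 (4.35%) towards marrow, and the median over the list was 0.08. The shares of all measured genes were 14.6% and 14.1%. Ddit4, a stress-induced inhibitor of the nutrient-sensing kinase complex mTORC1, was at 27.6 CPM in marrow and 179 in spleen. The forkhead factor Foxo1 was at 43.2 and 237 CPM, and Sesn3, another mTORC1 inhibitor, at 10.6 and 64.7 CPM. Tfeb, the activator of lysosome and autophagy genes, was at 40.7 CPM in marrow and 106 in spleen, while its relative Tfe3 was at 48.9 and 56.4 CPM and Mitf at 7.87 and 4.37 CPM. The kinase gene Mtor itself was at 96.7 and 84.9 CPM. Prkaa2, a catalytic subunit of the energy sensor AMPK, was the 1 gene past 2-fold towards marrow and had 17 reads there against 2 in spleen. That call was lost with a pseudocount of 5 (log2 difference 0.38) and with the deposited RPKM (0.24). The spleen library also had the higher B and T cell marker levels, at 4951 and 1739 CPM, whose part was not tested.

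The lists of organelle receptors and of lysosome genes passed 2-fold towards marrow at shares of 18.2% and 11.8%, near the 14.1% of all measured genes. The receptor list had 11 measured genes, not all of which encode receptors (Pink1 and Tbk1 encode kinases). Of the 11, 2 passed 2-fold towards marrow and 1 (9.09%) towards spleen, against 14.6% of all measured genes, and the median was 0.19. Ncoa4, the receptor that carries ferritin to the autophagosome, was at 425 CPM in marrow and 157 in spleen, and the mitochondrial receptor Bnip3 at 14.5 and 6.62 CPM. Bnip3 was just past the limit, at 1.02 on the log2(CPM + 1) scale, and fell inside it by library totals (0.96). Retreg1, a receptor for endoplasmic reticulum, was at 50.4 and 120 CPM. Calcoco2 had 1 read in each library and could not be compared. Of 17 measured lysosome genes, 2 passed 2-fold towards marrow and 0 towards spleen (14.6% of all measured genes), and the median was 0.25. These were Lamp2, a lysosomal membrane protein needed for fusion, at 302 and 109 CPM, and Atp6v1a, a proton pump subunit, at 193 and 79.8 CPM. The marrow library also had the higher granulocyte marker level, 50665 against 2389 CPM, whose part was not tested.

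**Figure D5:**
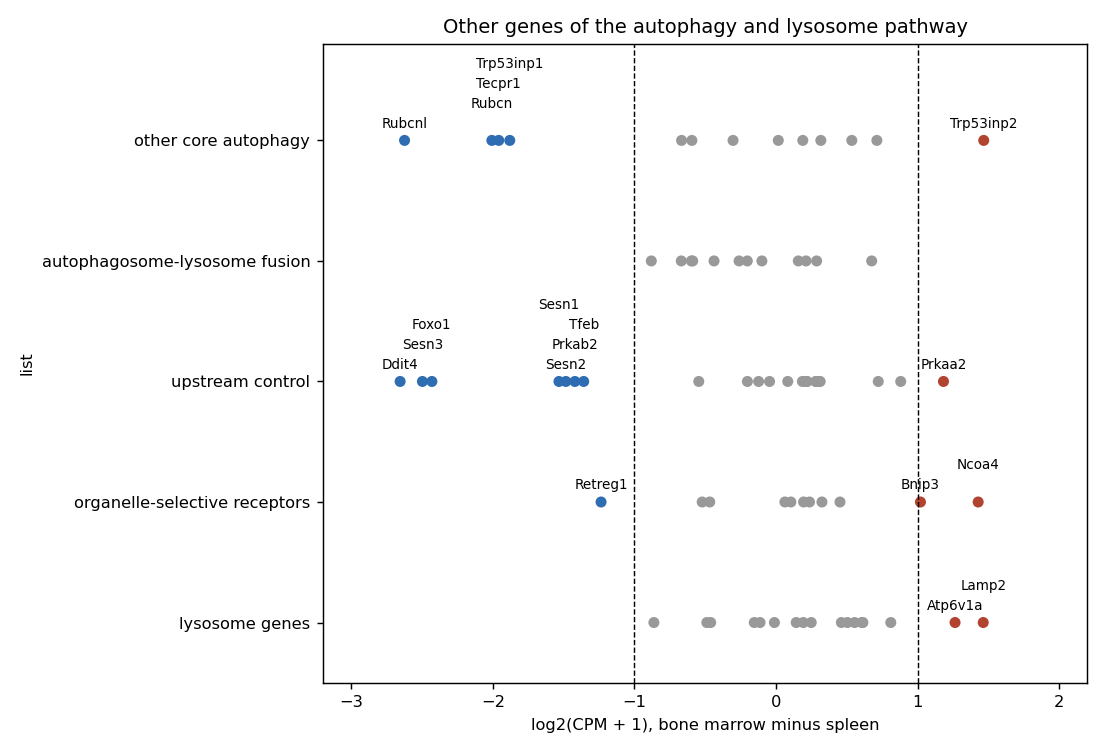
Difference on log2(CPM + 1), bone marrow minus spleen, for the 76 measured genes of 5 further pathway lists, 1 point per gene, with the genes past the dashed 2-fold limits coloured and named. Of the 12 points past the limit towards spleen, 7 are upstream regulators such as Ddit4 and Foxo1, and no fusion gene passes either limit.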

How the data were processed

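Each library's table lists genes by Entrez identifier. Per the file headers, its values as deposited by the authors are a read count for uniquely placed reads, an RPKM, a length and the percent of that length that reads covered. No source used here names the aligner, counting program, build or annotation. Genes were joined on the identifier, and a gene without a row was given 0 reads. TMM factors of 0.977 (bone marrow) and 1.02 (spleen) from edgeR 4.0.16 under R 4.3.3 were applied to the counts. Differences are on log2(CPM + 1), so those of low genes are understated. Measured genes reached 1 CPM and 10 reads in either library, and those at least 2-fold apart were called higher. With 1 library per tissue no p-value was computed. Intervals (scipy 1.17.1, 95%) cover counting error only, since reads amplified by PCR are not independent molecules. Levels of different genes were compared only by RPKM. The procedure was run on simulated counts that varied by counting error only, so it could not check for differences between mice or in cell content.

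The 37 genes and all lists were chosen with earlier results of these data known. Values were given for each gene past 2-fold, past 1.5-fold with an interval excluding equality, or highest per length in its role group, and for others by role. For the other lists, up to 3 genes per direction with the largest difference were to be named. Pik3c3, Mtor, Tfe3, Mitf, Tfeb and Calcoco2, the pairs and the motifs were chosen after the values were seen. The alternatives tried were scaling by DESeq2 1.42.0 size factors, by library totals or by TMM without marker genes, a pseudocount of 0.1 or 5, a floor of 10 CPM and 100 reads or none, a 1.5-fold rule and the deposited RPKM. Matching by deposited symbols alone was chosen after seeing the data.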

Additional observations from a re-analysis of the deposited data

How the results depend on the processing

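The calls of Wipi1, Gabarapl1, Optn and Atg16l2 gave counts of 3 and 1 under 8 of the 9 alternatives listed above, the exception being the 1.5-fold rule, and also with Atg101 left out. With 1.5-fold the counts were 6 in bone marrow and 4 in spleen, and those of the other pathway genes 13 and 19 in place of 6 and 12, by the construction of that rule. Of those 6, Prkaa2 and Bnip3 lost the call with a pseudocount of 5 (0.38 and 0.74 on the log2 scale) and with the deposited RPKM (0.24 and 0.90), Bnip3 also with library totals (0.96) and Prkaa2 with the higher floor. The median over the 37 genes ranged from -0.12 with library totals alone to -0.05 with DESeq2 size factors, and no called gene changed sign. Among 189 values of single genes under alternatives, 188 moved by less than the width of their counting interval to one side, and Wipi1 was at 2.11 with a pseudocount of 5 in place of 2.76. The floors, the 1.5-fold rule and the omission of Atg101 do not enter a gene's log2 difference, so agreement there was fixed in advance. The floor of 10 CPM and 100 reads left out Atg10. No paired analysis was possible because each tissue had 1 library. Depth limits the genes with few reads, such as Wipi1 with 37 reads in spleen and Atg10 with 57 and 46.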

Other observations

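The percent of each gene's length covered by reads, a column that the comparisons above did not use, had a median of 93.8% over the 37 autophagy genes in bone marrow and 91.7% in spleen, against 83.3% and 81.7% over all listed genes. The listed genes go down to 1 read, while the 37 had at least 37 reads, and no set matched by reads was compared. In 22 of the 37 genes the covered percent was at least 90% in both libraries. Some well-read genes were covered only in part in both: Atg3 at 72.8% with 789 reads in bone marrow and 67.2% with 516 reads in spleen, Becn1 at 80.3% and 80.1%, and Gabarap at 87.6% and 88.0%. Atg12, with 713 reads in bone marrow, was covered at 99.0%. The reason was not tested.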
